A study of Homo sapiens with 5 samples.

Results

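Chemokines and their receptors were examined in KMH2, an established cell line from Hodgkin lymphoma. The cells were exposed to LY294002 at 30 uM (2 arrays) or to DMSO, its solvent (3 arrays), and were taken after 16 hours. LY294002 inhibits phosphoinositide 3-kinase (PI3K) and is also known to bind mTOR and BET bromodomain proteins. All cells grew in the same serum-containing medium, and a further LY294002 array was left out by the submitters for its background. The members were the genes with a chemokine or chemokine receptor symbol (CCL, CXCL, CX3CL, XCL, CCR, CXCR, CX3CR and XCR). They were 48 of 7713 genes, of which 32 encode ligands and 16 encode receptors. The rule takes the brightest probe set per gene, but these 48 had 48 probe sets with 1 symbol, so each rests on a single probe set. A further 4 probe sets that carry several gene symbols matched these names and were left out.

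Chemokines are small secreted proteins that guide leukocytes along concentration gradients. Their receptors sit in the cell membrane and signal through inhibitory G proteins to PI3K, Rac and Rap, which move the cytoskeleton and switch integrins on. In Hodgkin lymphoma the rare malignant cells are surrounded by T cells, eosinophils and other immune cells, and CCL17, CCL22 and CCL5 made by the malignant cells are known attractants of that infiltrate, while CCR7 is a receptor of the malignant cells themselves.

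Values are log2 probe set values as deposited, and differences are LY294002 minus DMSO on that scale, with the standard error of a limma fit over all 8746 probe sets that are not controls. Of the 11 Hodgkin cell marker genes measured, 10 lay above the array median, among them TNFRSF8, the gene of CD30. Of the B cell markers 2 of 5 did so, while all 6 T cell markers measured did and 0 of 3 monocyte and macrophage markers. The 6 T cell markers averaged 7.47 and 7.60 on the LY294002 arrays, against 7.69, 7.70 and 7.69 on the DMSO arrays, and the 5 B cell markers 6.60 and 6.59 on the LY294002 arrays, against 6.85, 6.84 and 6.79 on the DMSO arrays. In the B cell list MS4A1, the gene of CD20, had the lowest difference, -0.999 ± 0.15 (limma adjusted p = 0.073), while CD79A was at 0.06 ± 0.07 and CD79B at 0.01 ± 0.03, and the list's median was -0.07. Of the Hodgkin markers 6 of 11 had no overlap between the groups (54.5%). This compares with 29.6% of all genes and 40.4% of genes above the array median, where 10 of the 11 lay. IRF4 rose by 0.66 ± 0.07 (limma adjusted p = 0.0473) and TRAF1 was at 0.38 ± 0.07. TNFRSF8 (-0.68 ± 0.17), BATF3 (-0.42 ± 0.08), FSCN1 (-0.30 ± 0.15) and FUT4 (-0.06 ± 0.03) lay lower without passing. There was also no overlap for 3 of the 6 T cell markers (50%) and 3 of the 5 B cell markers (60%). Of both lists 0 passed the limma test, against 0.908% of all genes. An unadjusted p under 0.05 was found for 1 of the 6 T cell markers (16.7%) and 2 of the 5 B cell markers (40%), against 17.1% of all genes. The part of any of these markers in the results was not tested. The array median, 6.27 on average, is a rank within the array and not a detection limit, and the affinity of probes differs between genes, so levels of different genes are not compared. The labels do not say whether replicates came from separate cultures. The p-values therefore rest on the scatter of these 5 arrays alone, which could be technical, and the small number of arrays limits the precision. The arrays measure RNA of whole cultures of the KMH2 line, and they do not measure secreted protein. Fewer KMH2 cells expressing a gene and less of its RNA per cell cannot be told apart in them.

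Above the array median were 13 of the 48 members: the receptor genes CCR7, CXCR4, CXCR1, CCR8 and CCR4 and the ligand genes CXCL10, CCL5, CX3CL1, CCL22, CXCL12, CXCL9, CCL4 and CXCL11. CCR4 lay just inside this limit with a mean of 6.33 over the 5 arrays, and CCL17 just outside it with 6.26, followed by CCR2 with 6.17. The mean over the 5 arrays includes the treated arrays. On the DMSO arrays alone CCL17 averaged 6.40, above the limit, and CXCL11 6.14, below it. CCR7 and CXCL11 were the 2 members higher on both LY294002 arrays than on every DMSO array. CCR7 was higher by 1.14 ± 0.18 and CXCL11 by 0.80 ± 0.10. CCL22, CCL17, CXCL9, CXCR4 and CCR10 were among 8 members lower on both LY294002 arrays than on every DMSO array, each by less than 0.4. Of the 48 members 0 passed the limma threshold of an adjusted p of 0.05, against 0.908% of all genes (0.609% higher and 0.298% lower), and 5 had an unadjusted p under 0.05 (10.4%), against 17.1% of all genes. By level these were 3 of the 13 members above the array median (23.1%), CXCL11 included, against 26.2% of all genes above it. Below it they were 2 of 35 (5.71%), against 8% of all genes below it.

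**Figure D1:**
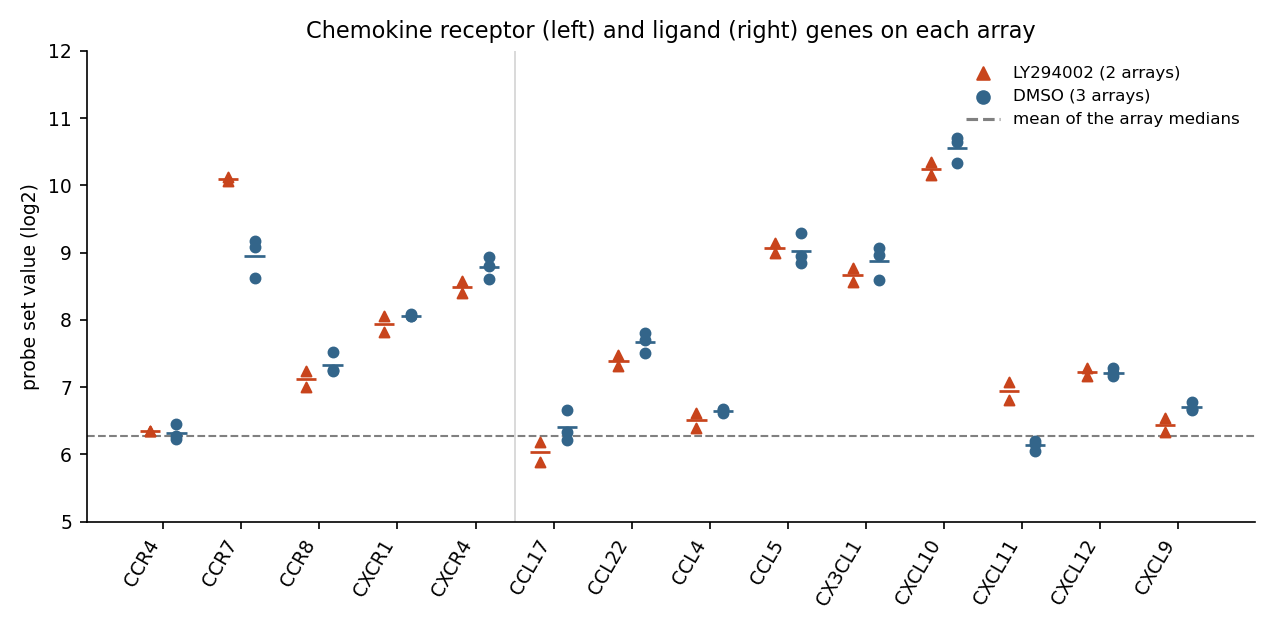
Probe set values (log2, vertical axis) of the 13 members above the array median and of CCL17, receptors to the left and ligands to the right of the grey line. Triangles are the 2 LY294002 arrays, circles the 3 DMSO arrays, short bars the group means and the dashed line the mean of the array medians. For CCR7 and CXCL11 both triangles lie above all circles, while for CXCL10, CCL5 and CX3CL1 the groups overlap.

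CCR7 is the receptor for CCL19 and CCL21 that leads lymphocytes and dendritic cells into the T zone of lymph nodes. Its values were 10.13 and 10.06 on the LY294002 arrays, against 8.62, 9.17 and 9.08 on the DMSO arrays. Both LY294002 arrays were above the highest DMSO array, and DMSO replicate 1 was the lowest of the DMSO arrays. The means were 10.09 ± 0.05 with LY294002 (SD, n = 2) and 8.95 ± 0.29 with DMSO (SD, n = 3). The fold was 2.20 (95% interval 1.58 to 3.08), which made CCR7 the 1 member at least 2-fold from DMSO, against 0.415% of all genes. CCR7 had the 16th highest log2 difference of the 7713 genes, and its limma adjusted p was 0.0776. Without DMSO replicate 1 the difference was 0.97 ± 0.05, with an adjusted p of 0.0786. Over the 12 other settings tried the adjusted p ran from 0.00609 to 0.374 and the difference from 0.97 to 1.24.

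The ligands of CCR7 lay below the array median on every array. CCL19 was at 4.91 and 5.06 with LY294002, against 4.91, 4.98 and 5.05 with DMSO, and the groups overlapped. CCL21 was at 5.33 and 5.45 with LY294002, against 5.45, 5.38 and 5.45 with DMSO, again with overlap. Their log2 differences were 0.0075 ± 0.07 and -0.04 ± 0.05.

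CXCR4, the receptor of CXCL12 that holds B cells in the bone marrow and in the dark zone of germinal centres, ran opposite to CCR7. It stood at 8.57 and 8.40 with LY294002, against 8.60, 8.81 and 8.94 with DMSO. Both LY294002 arrays were below every DMSO array, the nearest being DMSO replicate 1. The difference was -0.30 ± 0.12, a fold of 0.813 (95% interval 0.653 to 1.01), with a limma adjusted p of 0.318. CXCL12 itself, a chemokine of stromal cells, was at 7.17 and 7.28 with LY294002, against 7.29, 7.16 and 7.20 with DMSO. The groups overlapped, and the interval of the fold ran from 0.904 to 1.12.

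Of the other receptor genes above the array median, CCR8, a receptor of regulatory and type 2 helper T cells for CCL1, was at 6.998 and 7.24 with LY294002, against 7.52, 7.24 and 7.25 with DMSO. LY294002 replicate 2 lay within the DMSO range, just above DMSO replicate 2. CXCR1, a receptor for CXCL8 on neutrophils, was at 7.81 and 8.05 with LY294002, against 8.08, 8.05 and 8.05 with DMSO, so that LY294002 replicate 1 alone stood apart. CCR4, the receptor for CCL17 and CCL22, was at 6.35 and 6.35 with LY294002, against 6.23, 6.45 and 6.27 with DMSO, with the LY294002 arrays inside the DMSO range. The log2 differences were -0.22 ± 0.12 for CCR8, -0.13 ± 0.08 for CXCR1 and 0.03 ± 0.08 for CCR4, and their limma adjusted p-values were 0.438, 0.443 and 0.839. Without LY294002 replicate 1 the difference was -0.096 for CCR8 and -0.012 for CXCR1, without LY294002 replicate 2 it was -0.34 and -0.25, and without DMSO replicate 1 that of CCR8 was -0.13.

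Among the ligands, the Hodgkin chemokines CCL17 and CCL22, which both attract cells with CCR4, were lower with LY294002. CCL17 stood at 5.89 and 6.18 with LY294002, against 6.22, 6.33 and 6.66 with DMSO. CCL22 stood at 7.31 and 7.48 with LY294002, against 7.80, 7.51 and 7.71 with DMSO. For both genes the LY294002 arrays lay below every DMSO array and LY294002 replicate 1 was the lowest array. The difference was -0.37 ± 0.17 for CCL17 (limma adjusted p = 0.376, lowest 0.150 and highest 0.796 over the 12 other settings). It was -0.28 ± 0.11 for CCL22 (limma adjusted p = 0.31, 0.132 to 0.691 over those settings). Without LY294002 replicate 1 the difference of CCL17 was -0.23, without LY294002 replicate 2 it was -0.51, and without DMSO replicate 3 it was -0.24. The folds of CCL17 and CCL22 were 0.774 (95% interval 0.57 to 1.05) and 0.825 (0.676 to 1.01).

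CCL5, which attracts T cells and eosinophils, was at 8.997 and 9.15 with LY294002, against 8.85, 8.94 and 9.28 with DMSO. The LY294002 arrays lay inside the DMSO range. The fold was 1.03 with a 95% interval of 0.785 to 1.36, and the limma adjusted p was 0.876. CCL4, a ligand of the same family that attracts T cells and monocytes, was at 6.40 and 6.61 with LY294002, against 6.61, 6.67 and 6.65 with DMSO. LY294002 replicate 2 held exactly the value of DMSO replicate 1, and the difference was -0.14 ± 0.07 (limma adjusted p = 0.424). Without LY294002 replicate 1 it was -0.032, and without LY294002 replicate 2 it was -0.25.

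CX3CL1, or fractalkine, is made as a membrane-bound protein with a chemokine head and acts in adhesion as well as in attraction. It was at 8.77 and 8.56 with LY294002, against 8.59, 9.07 and 8.97 with DMSO. DMSO replicate 1 lay between the LY294002 arrays, and the difference was -0.22 ± 0.17 (limma adjusted p = 0.51). It was -0.36 without DMSO replicate 1, -0.12 without DMSO replicate 2 and -0.11 without LY294002 replicate 2. Its receptor gene CX3CR1 was below the array median, at 4.30 and 4.35 with LY294002, against 4.30 on each DMSO array.

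CXCL9, CXCL10 and CXCL11 are induced by interferon gamma, lie next to each other on chromosome 4 and share the receptor CXCR3. CXCL11 was at 7.07 and 6.81 with LY294002, against 6.20, 6.05 and 6.16 with DMSO. CXCL10 was at 10.34 and 10.15 with LY294002, against 10.33, 10.70 and 10.65 with DMSO. CXCL9 was at 6.34 and 6.54 with LY294002, against 6.66, 6.68 and 6.78 with DMSO. CXCL11 was thus higher on both LY294002 arrays than on any DMSO array, CXCL9 was lower on both, and CXCL10 overlapped with DMSO through DMSO replicate 1. On the DMSO arrays CXCL11 lay below the array median and on the LY294002 arrays above it. The log2 difference of CXCL11 was 0.80 ± 0.10, a fold of 1.75 (95% interval 1.46 to 2.08) and the 52nd highest of all genes, with a limma adjusted p of 0.0518. Over the 12 other settings the adjusted p of CXCL11 ran from 0.00434 to 0.348 and its difference from 0.68 to 0.93. CXCL10 differed by -0.32 ± 0.14 (limma adjusted p = 0.37) and CXCL9 by -0.27 ± 0.08 (limma adjusted p = 0.202), or by -0.17 without LY294002 replicate 1. The difference between these genes in their response was not tested. CXCR3 lay below the array median, at 5.44 and 5.48 with LY294002, against 5.48, 5.48 and 5.50 with DMSO.

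The 250 bases before the start of these 3 genes and of CCL22 are shown because the 3 are neighbours with a shared receptor and CCL22 is a Hodgkin chemokine. They come from RefSeq on GRCh38.p14, at chr4:76007510-76007759 for CXCL9, chr4:76023498-76023747 for CXCL10, chr4:76036071-76036320 for CXCL11 (all on the minus strand) and chr16:57358533-57358782 for CCL22 (plus strand). Each reads 5' to 3' on the gene's own strand and ends at the base before the start. Capitals mark matches on either strand to the kappaB consensus bound by NF-kB, to the core of the element bound by interferon-activated factors (GAAA, NN and GAAA in 1 run), or to TGANTCA, the AP-1 site.
CXCL9: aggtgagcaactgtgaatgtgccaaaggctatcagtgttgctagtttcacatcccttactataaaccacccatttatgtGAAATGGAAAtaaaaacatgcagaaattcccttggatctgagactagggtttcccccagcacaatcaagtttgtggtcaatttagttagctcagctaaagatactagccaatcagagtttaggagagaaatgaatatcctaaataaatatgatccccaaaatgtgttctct
CXCL10: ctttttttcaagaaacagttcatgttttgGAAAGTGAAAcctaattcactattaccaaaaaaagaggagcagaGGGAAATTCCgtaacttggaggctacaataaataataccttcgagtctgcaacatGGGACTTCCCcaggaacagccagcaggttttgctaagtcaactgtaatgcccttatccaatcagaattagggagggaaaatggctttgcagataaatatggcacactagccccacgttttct
CXCL11: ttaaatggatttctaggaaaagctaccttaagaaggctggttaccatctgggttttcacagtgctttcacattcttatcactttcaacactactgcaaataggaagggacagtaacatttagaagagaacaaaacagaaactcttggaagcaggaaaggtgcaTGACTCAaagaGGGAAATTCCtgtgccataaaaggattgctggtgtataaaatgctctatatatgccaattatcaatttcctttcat
CCL22: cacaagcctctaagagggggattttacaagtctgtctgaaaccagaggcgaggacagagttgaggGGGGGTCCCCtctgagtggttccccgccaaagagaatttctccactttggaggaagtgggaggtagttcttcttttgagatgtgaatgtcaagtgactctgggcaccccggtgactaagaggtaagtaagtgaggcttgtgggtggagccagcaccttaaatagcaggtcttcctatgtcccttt
CXCL10 held 2 kappaB matches, GGGAAATTCC from 177 to 168 and GGGACTTCCC from 122 to 113 bases before the start, and the interferon element core GAAAGTGAAA from 221 to 212. CXCL11 held 1 kappaB match of the same letters as in CXCL10, GGGAAATTCC, from 76 to 67 bases before the start, beside an AP-1 match from 87 to 81, and no match to the interferon element core in this window. CXCL9 held the core GAAATGGAAA from 171 to 162, and CCL22 the kappaB match GGGGGTCCCC from 185 to 176. Of the 36 members with such a window, 9 held a kappaB match (25%), against 5.05% of 27305 genes, 4 held the interferon element core (11.1% against 3.07%), 7 held TGANTCA (19.4% against 6.6%) and 0 the forkhead site TGTTTAC (against 2.98%). No window was available for CCR7 or CCL17, so neither was searched for these sites. The kappaB matches were in CCL20, CCL22, CXCL1, CXCL2, CXCL3, CXCL5, CXCL6, CXCL10 and CXCL11, several of which are duplicated neighbours that share sequence. These are matches of letters and were not tested for binding.

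**Figure D2:**
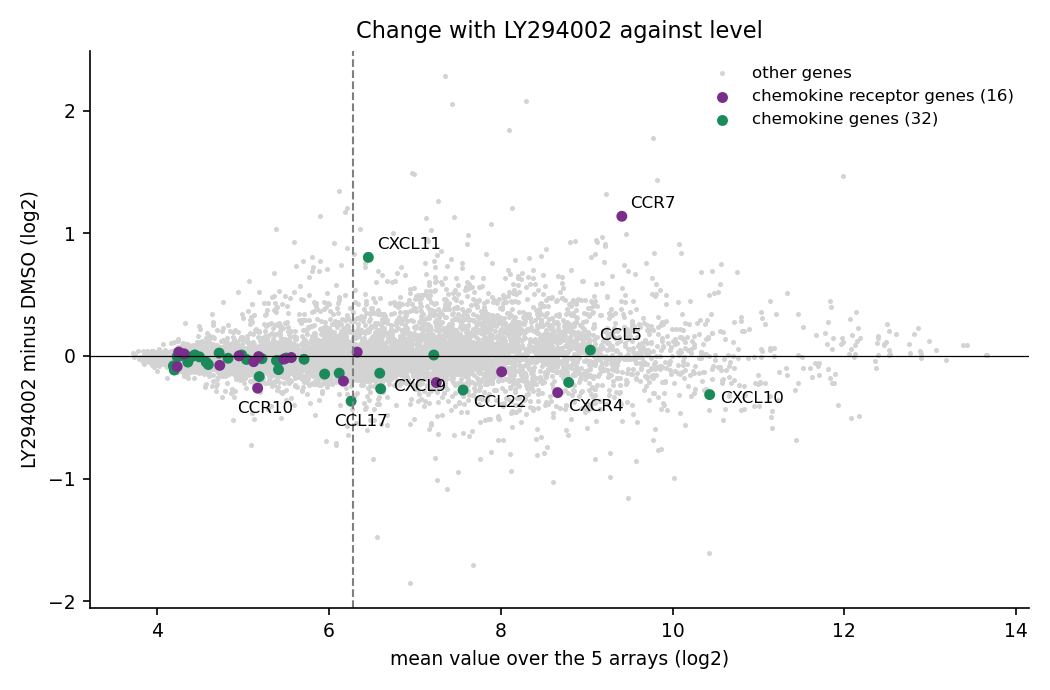
LY294002 minus DMSO (log2, vertical axis) against the mean over the 5 arrays (log2, horizontal axis) for all genes (grey), receptor genes (purple) and ligand genes (green), with the mean of the array medians as a dashed line. CCR7 at 1.14 and CXCL11 at 0.80 lie apart from the other members, which lie between -0.37 and 0.05.

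The remaining members lay below the array median, from 4.19 to 6.26 in their mean over the 5 arrays, CCL17 included. Between them the differences ran from -0.37 to 0.03, and the smallest limma adjusted p was 0.128. That belonged to CCR10, a receptor of skin-homing and mucosal lymphocytes, which was at 4.99 and 5.03 with LY294002, against 5.34, 5.19 and 5.29 with DMSO. Both LY294002 arrays were below every DMSO array, and the difference was -0.26 ± 0.06. CCR2, a receptor of monocytes, was at 5.94 and 6.14 with LY294002, against 6.17, 6.17 and 6.41 with DMSO, and CCL24, an eosinophil attractant, was at 4.99 and 5.18 with LY294002, against 5.32, 5.18 and 5.26 with DMSO. These differences were -0.21 ± 0.11 for CCR2, where the groups did not overlap, and -0.17 ± 0.08 for CCL24, where LY294002 replicate 2 shared the value of DMSO replicate 2. Without LY294002 replicate 1 they were -0.11 for CCR2 and -0.076 for CCL24, and without LY294002 replicate 2 -0.31 and -0.26. Without DMSO replicate 3 that of CCR2 was -0.12. The highest differences below the array median were 0.03 ± 0.03 for CCR6, 0.02 ± 0.05 for CXCL14 and 0.02 ± 0.03 for CX3CR1. CXCR5, the receptor that guides B cells into follicles, differed by -0.01 ± 0.03, and CXCL8, the neutrophil attractant, by -0.03 ± 0.03. CXCR5 and CXCL8 fall outside the naming rule and were picked with their values known, as were CCL23 (-0.11 ± 0.04), which is the fifth member with an unadjusted p under 0.05 beside CCR7, CXCL11, CXCL9 and CCR10, and CCL18 (-0.08 ± 0.04), which with CCL23 completes the 8 lower members without overlap.

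The neutrophil attractants CXCL1, CXCL2, CXCL3, CXCL5, CXCL6 and CXCL8 all lay below the array median, and the lowest difference among these 6 was -0.05 ± 0.05 for CXCL3. Of them, CXCL1, CXCL2, CXCL3, CXCL5 and CXCL6 held a kappaB match in the window described above. CCL11, which like CCL24 attracts eosinophils, differed by -0.14 ± 0.15, and CCL2, a monocyte attractant, by -0.11 ± 0.10. CCL20, a ligand of CCR6, differed by -0.02 ± 0.04, and CXCL13, the ligand of CXCR5, by -0.05 ± 0.07. These genes were likewise picked with their values known, and for none of them did the limma adjusted p pass 0.05.

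**Figure D3:**
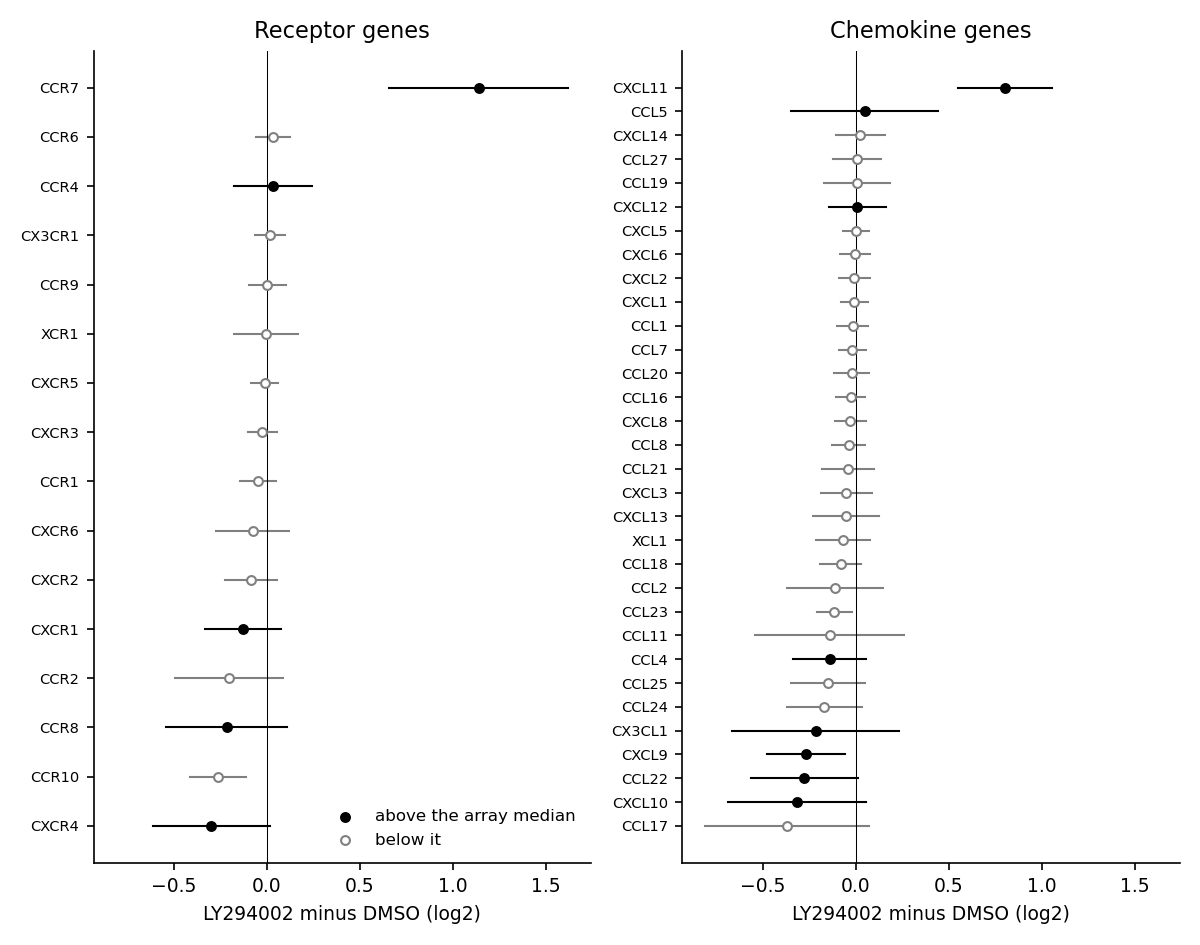
LY294002 minus DMSO (log2, horizontal axis) with its 95% interval for each of the 16 receptor genes and the 32 ligand genes, filled where the gene lies above the array median and open where below. The intervals of CCR7 and CXCL11 lie wholly above 0, and those of 3 others, CCR10, CXCL9 and CCL23, wholly below.

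Across the members, 10 of 48 had LY294002 arrays that did not overlap with the DMSO arrays (20.8%), against 29.6% of all genes. Of these, 2 were higher, against 16.2% of all genes, and 8 lower, against 13.4% of all genes. Among the 13 members above the array median the count was 5 (38.5%), against 40.4% of all genes above it. CXCL11, 1 of these 5, is among the 13 only through its LY294002 arrays, so its place in this count depends on its difference. The shares in either direction, 20.8% and 38.5%, are not above their backgrounds. The shares of all genes by direction, 16.2% and 13.4%, are not matched to the members for level. Below the array median 0 of 35 members were higher and 5 lower, against 292 and 433 of all 3852 genes there. Above it 2 of 13 members were higher and 3 lower, against 954 and 604 of all 3861 genes there. A lean of the members to either direction was not tested. The median log2 difference was -0.14 for the 13 members above the array median, against 0.01 for all genes above it, and -0.03 for the 35 below, against -0.02 for all genes below. The unadjusted 95% interval lay within a 2-fold change in either direction for 46 of 48 members (95.8%), against 98% of all genes, and the exceptions were CCR7 and CXCL11.

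LY294002 replicate 1 was the lowest of the 5 arrays for 18 of these 35 members (51.4%), against 42.4% of all genes below the array median, and its median distance from the DMSO mean over the 35 was -0.05, against -0.02 for LY294002 replicate 2 (-0.03 and -0.0052 for all genes below the array median). Exactly equal values on 2 or more arrays occurred for 26 of the 35 (74.3%), against 69.1% of all genes below the median. Above the array median, DMSO replicate 1 was the lowest DMSO array for 8 of the 13 members (61.5%), among them CCR7, CXCR4, CXCL10, CCL5 and CX3CL1, against 37.9% of all genes above it. Over these 13 the median distance from the DMSO mean was -0.21 on LY294002 replicate 1 and -0.03 on replicate 2. The DMSO arrays also differed more for these members: their median SD between DMSO arrays was 0.151, against 0.0737 for all genes above the array median. The part of these array differences in the results above was not tested, other than by the fits without each array.

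**Figure D4:**
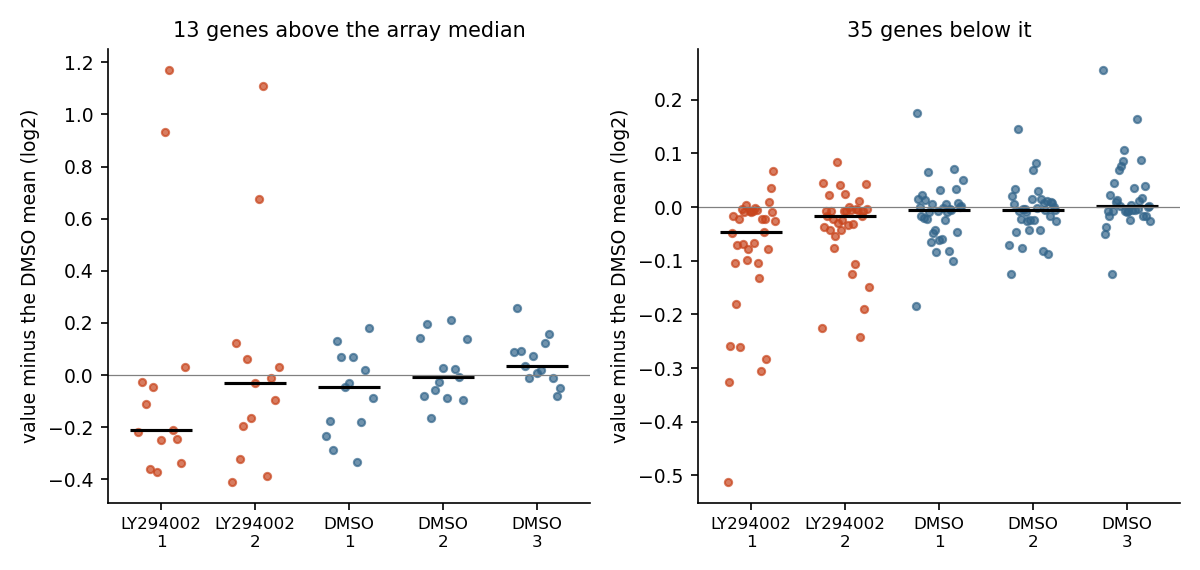
Value minus the DMSO mean of the gene (log2, vertical axis) on each of the 5 arrays for the 13 members above the array median and the 35 below it, with the median as a bar; the vertical scales of the panels differ. In the right panel the points of LY294002 replicate 1 reach furthest down, with a median of -0.05.

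The genes around the receptors were read from lists of known partners. Of 41 measured genes that carry the receptor signal (G protein subunits, receptor kinases, arrestins, PI3K and Rac steps) 0 passed limma's threshold, 7 had an unadjusted p under 0.05 (17.1%, the same as the 17.1% of all genes), and the median log2 difference was 0.01, against -0.01 for all genes. Among those above the array median the ends were RAC2, the Rac of blood cells, at 0.51 ± 0.14, and PRKCD, a protein kinase C, at -0.22 ± 0.12. RAC2 was at 7.60 and 7.77 with LY294002, against 6.99, 7.40 and 7.14 with DMSO, without overlap.

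RGS proteins switch off the G proteins that chemokine receptors activate. Of 9 measured RGS genes 0 rose and 1 fell past the threshold, against 0.609% and 0.298% of all genes. The 1 was RGS14, which lay below the array median at 5.72 and 5.77 with LY294002, against 6.02, 6.03 and 6.04 with DMSO. It changed by -0.29 ± 0.03 (limma adjusted p = 0.0438), but 0 of all genes passed without DMSO replicate 2 or without DMSO replicate 3. Of the RGS genes 5 had no overlap between the groups (55.6%), against 29.6% of all genes: RGS1, RGS2 and RGS10 were higher, RGS4 and RGS14 lower. RGS10 differed by 0.40 ± 0.08 (limma adjusted p = 0.107) and RGS4 by -0.10 ± 0.05 (limma adjusted p = 0.368), both named with their values known. RGS2 was at 9.99 and 10.13 with LY294002, against 8.82, 9.13 and 9.24 with DMSO. Its difference of 0.99 ± 0.14 had a limma adjusted p of 0.0695. RGS1, named here with its values known, dampens the response of B cells to chemokines. It was at 9.85 and 9.67 with LY294002, against 8.43, 8.88 and 9.07 with DMSO. Both RGS1 and RGS2 were higher on both LY294002 arrays than on any DMSO array, and in both DMSO replicate 1 was the lowest, as for CCR7. The difference of RGS1 was 0.97 ± 0.21 (limma adjusted p = 0.127). RGS19 was the lowest RGS gene above the array median, at -0.10 ± 0.14.

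Of 28 measured transcription factors and inhibitors known to act on CCR7 or on chemokine genes in Hodgkin cells, 1 rose and 0 fell past the threshold. Of all genes 0.609% rose and 0.298% fell past it. There was no overlap between the groups for 19 of the 28 (67.9%), 14 higher and 5 lower. This compares with 29.6% of all genes and 40.4% of genes above the array median, where 22 of the 28 lay. The median log2 difference was 0.14, against -0.01 for all genes. The gene that rose was IRF4, at 8.90 and 8.87 with LY294002, against 8.15, 8.35 and 8.18 with DMSO (0.66 ± 0.07, limma adjusted p = 0.0473). It is the same IRF4 as in the Hodgkin marker list. Without DMSO replicate 2 or without DMSO replicate 3, 0 of all genes passed, IRF4 included. FOXO3, a factor held in the cytoplasm by PI3K signalling, was the highest at 0.77 ± 0.18 (limma adjusted p = 0.139), and BATF3, an AP-1 partner that is high in Hodgkin cells, the lowest at -0.42 ± 0.08 (limma adjusted p = 0.0961). This list was written with earlier results of these data known.

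Of 20 measured inducers and processing enzymes of chemokines 0 passed, with TNF at 0.68 ± 0.19 and the proteoglycan SDC4 at -0.23 ± 0.12 as the ends above the array median. Of 13 homing and adhesion genes 0 passed; CD44, the hyaluronan receptor, was at 0.67 ± 0.16 and ITGB2, the beta chain of leukocyte integrins, at -0.36 ± 0.08. Of 8 atypical receptors and other chemokines 0 passed and all 8 differences were below 0. This compares with 55.5% of all genes, or 46.7% above the array median and 64.3% below it, where most of the 8 lay. Above the array median were ACKR1, the Duffy receptor, at -0.17 ± 0.05 and PF4, the platelet chemokine, at -0.11 ± 0.07. ACKR5, an atypical receptor gene that the list did not hold, had a difference of 0.0013 ± 0.03. Of 13 other chemoattractant receptors 0 passed and 0 lay above the array median. An unadjusted p under 0.05 was found for 4 of the inducers and processing enzymes (20%), 4 of the homing genes (30.8%), 1 of the atypical receptors and other chemokines (12.5%) and 2 of the other chemoattractant receptors (15.4%), against 17.1% of all genes.

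**Figure D5:**
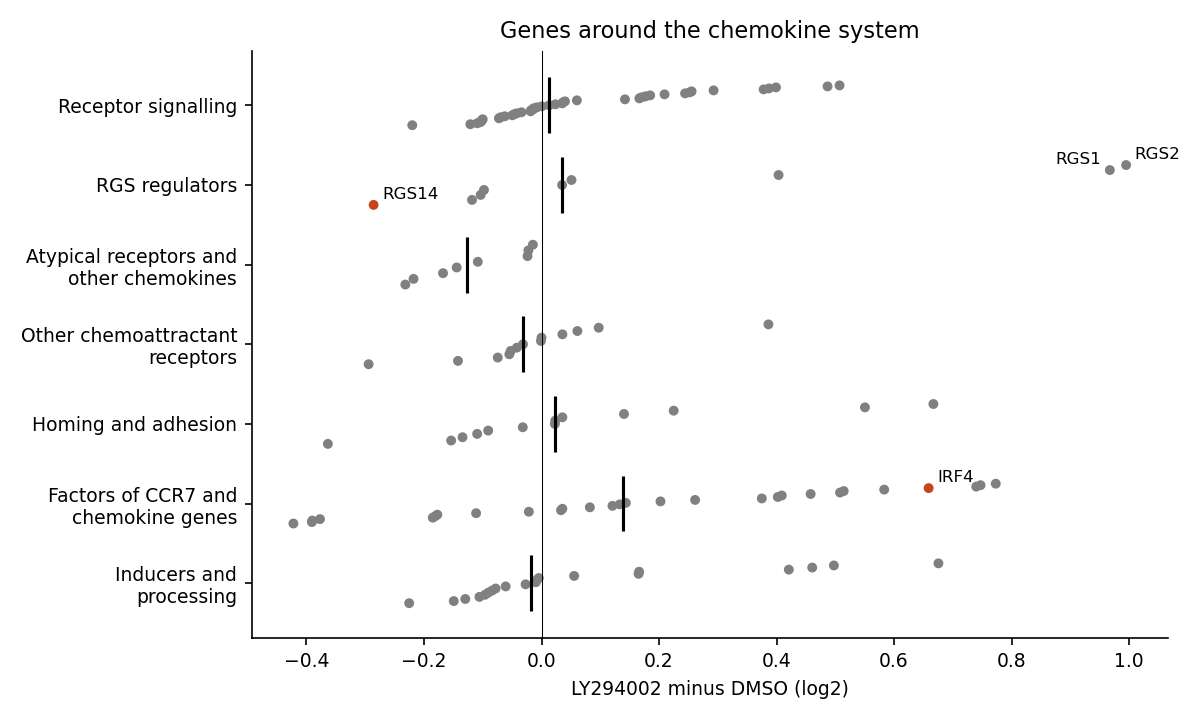
LY294002 minus DMSO (log2, horizontal axis) of each measured gene in 7 lists around the chemokine system, with the list's median as a bar and genes past limma's threshold in red. RGS14 at -0.29 and IRF4 at 0.66 are the red points, while RGS1 and RGS2 lie furthest to the right without passing.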

How the data were processed

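RNA of KMH2 cells was labelled with biotin and hybridised to Affymetrix arrays, per the labels' protocols. The deposited values are on a log2 scale and were made by the authors. The submitters' processing notes name affy, while its version, the background correction and the normalization are not given in the sources used for this work. Of 8793 probe sets 47 controls were left out. The platform's annotation gave 7840 of the other 8746 probe sets 1 symbol, 388 several and 518 none, which made 7713 genes at their brightest probe set. LY294002 was compared with DMSO by limma 3.58.1 in R 4.3.3 (lmFit and eBayes, group as the only term, 3 residual degrees of freedom) with Benjamini-Hochberg adjustment over all 8746 probe sets at 0.05. The fit was tested on simulated data. Members, lists and tests were chosen with earlier results of these data known. Named genes are all members above the array median, CCR7, CCL17, CCL22 and CCL5, the 3 highest and 3 lowest other members and, per list, genes past the threshold and the ends above the array median. Other settings tried were quantile normalization, centring on the median, removal of the dimmest 40%, an intensity trend with robust prior, a replicate block, averaging probe sets per gene, other limits of level, each array left out, and, added after seeing the data, removal of probe sets with identical values. Plots and motif searches used Python 3.11.15 and matplotlib 3.10.9.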

Additional observations from a re-analysis of the deposited data

How the results depend on the processing

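The number of all genes past the threshold was 70 as reported, 299 after quantile normalization, 147 after median centring, 203 without the dimmest 40% of probe sets, 510 without probe sets that hold identical values in a group (an alternative added once the data had been seen), 0 with the replicate block, and 0 to 4 without 1 array. The number of members past it was 0 as reported, 2 (CCR7 and CXCL11) after quantile normalization, without the dimmest 40% and without identical values, 1 (CXCL11) after median centring and 1 (CXCL11) with an intensity trend, and 0 with the replicate block and without each array in turn. For these counts the cause was not tested. With the upper quartile as the limit 6 members were counted in place of 13. The median difference of the members above the array median stayed below 0, from -0.22 to -0.06. Of 231 alternative values for 20 named members 10 reversed, all near 0: CXCL12 to -0.045 and CCL5 to -0.018 with quantile normalization, and the others without 1 array. Many of the 231 could not reverse. Leaving out dim probe sets or identical values, the intensity trend and averaging of probe sets leave a member's difference unchanged. Median centring shifts all genes alike. The count of 231 is therefore not a measure of how stable the directions are. Without 1 array the differences ran from -0.048 to 0.063 for CXCL12, -0.042 to 0.177 for CCL5, -0.014 to 0.101 for CCR4, -0.0090 to 0.043 for CX3CR1, -0.0013 to 0.061 for CXCL14 and -0.0041 to 0.067 for CCR6. With 1 LY294002 array left, that array is assumed to vary like the DMSO arrays. Shared replicate numbers were not shown to pair the arrays: deviations of same-numbered arrays correlated at 0.0021 and -0.21. With 2 LY294002 arrays their deviations mirror each other, so each correlation of replicate 2 is that of replicate 1 with the sign turned. The 2 values are therefore not separate checks and cannot decide whether the arrays are paired. With the replicate block CCR7 was at 1.20 ± 0.20 (limma adjusted p = 0.374) and CXCL11 at 0.81 ± 0.05 (0.348). DMSO replicate 3 has no LY294002 array of its number, so in the block it adds nothing to the difference. The block's differences are therefore those of the fit without DMSO replicate 3 and not a separate check. The block also leaves fewer residual degrees of freedom than the 3 of the main fit.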
